A study of Homo sapiens with 12 samples.

Results

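The resting expression profile described here is that of vehicle-treated cells, read on the 3 arrays titled C42B_181_Et, out of 12 arrays in the series. They were chosen by their titles alone, and no other array enters any value below. The labels name the cells C4-2B, a human prostate cancer line, and the series design says that they carry a RUNX2 gene that doxycycline can switch on. The vehicle cells received ethanol and neither doxycycline nor dihydrotestosterone. Before that, growth in 10% FBS had been followed by 48 h in 5% charcoal-stripped serum without phenol red, which removes most steroid hormone. The 3 arrays are biological replicates per the series design, and the labels do not say whether the line is 1 clone or a pool.

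Glandular epithelia such as prostate and breast are lined by luminal cells, which carry keratins 8, 18 and 19, cell junctions sealed by E-cadherin and claudins, and secretory products, over a layer of basal cells with keratins 5 and 14. Luminal cells of both organs use the pioneer factor FOXA1. In prostate it works with HOXB13 on androgen-induced genes such as KLK3, and in breast with the estrogen receptor ESR1 and GATA3 on genes such as TFF1.

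Each array gave a linear intensity for 47230 bead probes, and 30113 of them had exactly 1 gene symbol, which gave 20046 genes. Each gene was read by its brightest probe. A gene was called above background when that probe exceeded 146.2 intensity units on all 3 arrays. This limit is the 95th percentile of 614 probes for defensins, taste and olfactory receptors and keratin-associated proteins, whose genes epithelial lines rarely express. By this rule 10505 genes, or 52.4% of those named, were above background. Genes in the top 10% by mean intensity (2005 genes, 1737 units or more) were called high, and the other 8500 above background intermediate. Another 2295 genes passed the limit on 1 or 2 arrays and were called borderline, and 7246 on none. The step into the high class has no gap around it, with the last high gene at a mean of 1736.6 units and the next gene at 1736.4. A probe's brightness depends on its own binding as well as on the amount of RNA, so the classes and ranks below order probes and not transcript numbers.

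The replicate arrays were close to each other in the deposited values, whose sorted columns were already equal to within 0.8 units. Across genes above background, log2 intensities correlated between pairs of arrays at 0.994 to 0.995 (as a description only, since genes of 1 array are not independent). The median coefficient of variation was 4.94% among high genes and 6.67% among intermediate ones. Any pair of arrays shared 1914 to 1919 of their 2004 brightest genes, and 185 to 192 of their 200 brightest.

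The labelled cell type was set first against 8 marker genes. KRT19 and KRT8, the keratins of simple epithelium, read 16353, 15111 and 16737 and 12305, 13884 and 13119 on vehicle replicates 1, 2 and 3. FOXA1 read 9423.9, 10059 and 9722.0 units. All these values lie far inside the high class, and the ranks on single arrays ran from 105 to 126 for KRT19, from 140 to 162 for KRT8 and from 236 to 256 for FOXA1.

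ESR1, the estrogen receptor gene, read 3825.5, 4573.5 and 4711.4 units (4370 ± 477 SD, n = 3). GATA3, a zinc finger factor of luminal breast cells, read 3790.2, 4077.6 and 3797.2. TFF1, a secreted trefoil peptide gene and a classic estrogen target, read 9547.4, 8639.3 and 9333.6. None of these 3 genes had an array outside the high class, and ESR1 was lowest on replicate 1, at rank 860 against 700 and 675.

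KLK3, which encodes prostate-specific antigen, read 120.1, 178.6 and 121.2 units (140 ± 33.5 SD, n = 3) and was above the limit on replicate 2 alone. KLK3 is induced by androgen, which was not added to vehicle cells, and the part of the medium in its level was not tested. HOXB13, the homeobox factor of the prostate lineage, read 107.9, 115.3 and 128.9, below the limit on every array. Its mean of 117.4 lay near the middle of the background probes. The 8 markers thus fell into a high set of 6 and a pair at or near background, as the plot of marker intensities shows. That HOXB13 was below the limit and KLK3 above it on 1 array only, beside high ESR1, GATA3 and TFF1, goes against the labelled prostate origin. The cells are therefore called vehicle cells below, and no other cell type name is given.

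**Figure D1:**
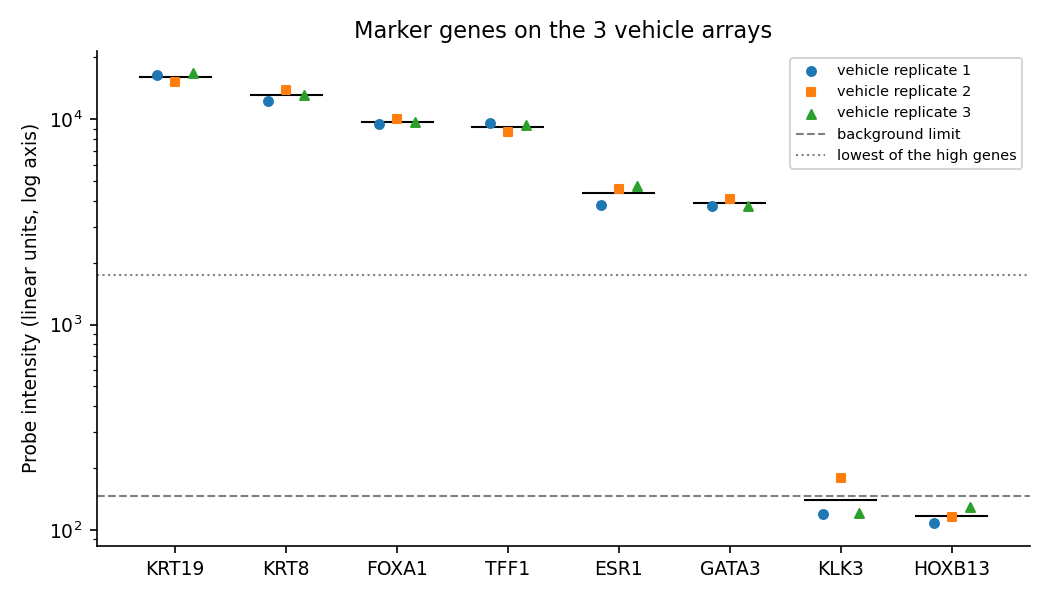
Probe intensity (log axis) of 8 marker genes on the 3 vehicle arrays, with bars at the means, a dashed line at the background limit of 146.2 and a dotted line at the lowest high gene. KRT19, KRT8, FOXA1, TFF1, ESR1 and GATA3 lie above the dotted line on every array, while HOXB13 lies below the dashed line on all and KLK3 on all but replicate 2.

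The promoters of a few of these genes are shown for their differing CpG content. They were taken from RefSeq (GRCh38.p14), from 250 bases before to 50 after the start, for genes with 1 start in that table. FOXA1 and the secreted disulfide isomerase gene AGR2 are 2 high genes, and KLK3 and its neighbour KLK2, another prostate kallikrein, 2 genes not above the limit on all arrays. The high gene KRT8 went the other way from FOXA1, with 2 CG dinucleotides in its window and an observed over expected CpG ratio of 0.111. Capitals mark CG dinucleotides and the 6-letter motif TATAAA on either strand.
FOXA1, chr14:37595200-37595499, minus strand: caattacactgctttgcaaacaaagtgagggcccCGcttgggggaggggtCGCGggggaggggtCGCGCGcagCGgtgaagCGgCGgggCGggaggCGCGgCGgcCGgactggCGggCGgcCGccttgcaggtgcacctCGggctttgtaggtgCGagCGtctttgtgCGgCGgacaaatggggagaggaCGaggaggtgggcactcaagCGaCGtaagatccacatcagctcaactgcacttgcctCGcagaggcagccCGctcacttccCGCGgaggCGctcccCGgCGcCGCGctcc
AGR2, chr7:16804950-16805249, minus strand: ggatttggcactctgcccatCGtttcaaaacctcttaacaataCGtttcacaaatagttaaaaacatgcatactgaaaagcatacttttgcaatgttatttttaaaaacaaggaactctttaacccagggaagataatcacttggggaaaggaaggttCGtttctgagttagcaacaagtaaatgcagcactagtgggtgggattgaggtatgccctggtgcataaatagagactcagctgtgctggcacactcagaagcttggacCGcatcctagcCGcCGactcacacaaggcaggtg
KLK3, chr19:50854665-50854964, plus strand: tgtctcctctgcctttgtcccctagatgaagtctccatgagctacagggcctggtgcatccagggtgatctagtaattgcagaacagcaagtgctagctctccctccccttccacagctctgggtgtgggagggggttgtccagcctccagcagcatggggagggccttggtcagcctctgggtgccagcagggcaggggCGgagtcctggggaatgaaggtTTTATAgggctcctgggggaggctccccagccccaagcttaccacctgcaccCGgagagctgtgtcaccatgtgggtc
KLK2, chr19:50873189-50873488, plus strand: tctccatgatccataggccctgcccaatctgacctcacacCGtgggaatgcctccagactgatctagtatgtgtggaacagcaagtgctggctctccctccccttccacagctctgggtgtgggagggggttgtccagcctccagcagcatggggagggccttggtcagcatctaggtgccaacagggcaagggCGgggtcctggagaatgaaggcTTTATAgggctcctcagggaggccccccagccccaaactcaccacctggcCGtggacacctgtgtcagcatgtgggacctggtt

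The FOXA1 window held 34 CG dinucleotides, AGR2 held 6, KLK2 held 3 and KLK3 held 2. Corrected for base composition, the observed over expected CpG ratio was 0.966 for FOXA1, 0.420 for AGR2, 0.109 for KLK2 and 0.0719 for KLK3. Both kallikrein windows held TATAAA on the minus strand, and the windows of FOXA1 and AGR2 held none. That motif was found in 12.7% of 22114 promoters with a single start. A match is only a match of letters.

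Over all genes, promoter CpG content followed the brightness classes. A single start was available for 11158 of the named genes. The median CpG ratio was 0.882 for 1185 high genes and 0.858 for 4888 intermediate genes, against 0.636 for 1221 borderline genes and 0.380 for 3864 genes at background. TATAAA was in 6.33% of high and 5.11% of intermediate promoters, and in 12.6% of borderline and 17.6% of background ones. Most of the shift thus lay between genes with and without signal, and hardly any between high and intermediate genes. The median ratio of all 11158 genes was 0.774, and 10.4% of them had TATAAA. Breast luminal genes had a median ratio of 0.207 (12 genes with a single start) and prostate luminal and androgen-response genes 0.368 (9 genes). Keratins, most of which were at background, had a median of 0.135 (31 genes, with TATAAA in 19). Cell cycle genes (0.941 over 14) and ribosomal protein genes (0.927 over 54) had high median ratios.

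**Figure D2:**
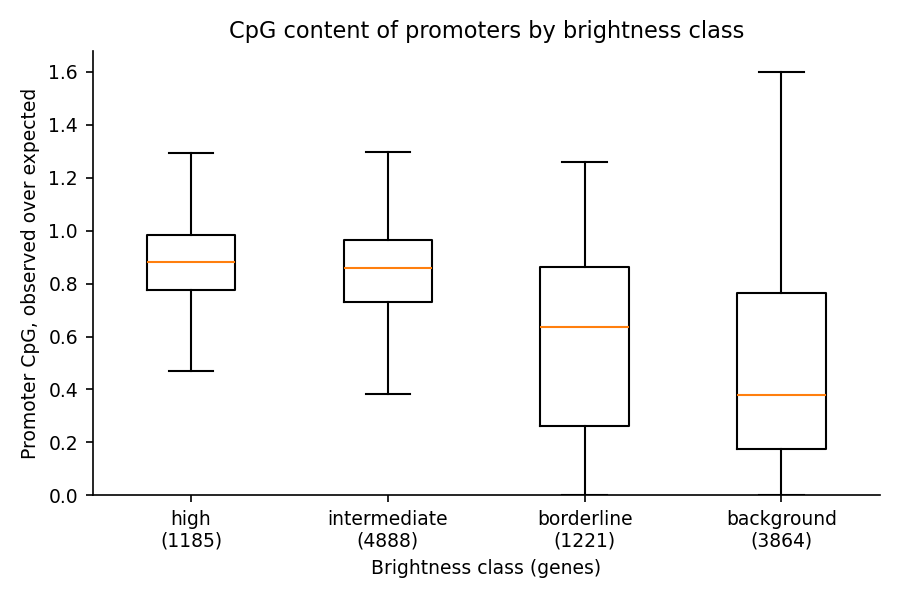
Observed over expected CpG ratio of the 300 bases around the start of 11158 named genes with a single start, by brightness class, with the number of genes in brackets. Boxes span the quartiles, lines mark medians (0.882, 0.858, 0.636 and 0.380 from high to background) and whiskers reach at most 1.5 times the box height.

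Genes of simple epithelium had the highest share above background of the 16 cell type lists. Of 27 members with a named probe 26 were above background and 15 were high, against 52.4% and 10% of all genes, and the list's median intensity was 2205 against 165.5 over all named genes. CD24, a small glycoprotein at the surface of luminal cells, read 18383, 18646 and 17148 by its brighter probe and averaged 1638 by the other. CDH1, which encodes E-cadherin, read 10471, 10693 and 10567, a spread of 111 units SD around 10577. EPCAM, the epithelial adhesion molecule gene, read 9523.3, 9089.3 and 9273.7, and its other probes averaged 5973 and 1936, so that the probe decides where in the class it stands. MUC1, a transmembrane mucin of luminal surfaces, had 3 probes too, at means of 10282, 4212 and 593.

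The trafficking genes MAL2 (5933 ± 65.4 SD, n = 3) and RAB25 (3492) were high, as were the protease gene PRSS8 (3265) and the junction genes CLDN3 (3381 ± 310), CLDN7 (2205 ± 83.0), CGN (2537) and PERP (3016). Epithelial transcription and splicing regulators were dimmer. ELF3 read 1340.8, 1363.8 and 1443.3, GRHL2 averaged 706.7 ± 27.7 and the splicing factor gene ESRP1 449.9 ± 27.3, all intermediate on every array. ESRP2, which encodes the related splicing factor, was the 1 member at background (134.0 ± 6.07).

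Keratins are expressed in pairs of a type I and a type II chain, and the set present is a fingerprint of the epithelial type. Of 49 keratin genes with a named probe 11 were above background (22.4%, against 52.4% of all named genes). The 4 high ones (8.16%, against 10%) were KRT19, KRT8, KRT80 and KRT10. KRT80, a type II keratin, read 10870, 8942.7 and 9209.5 units, with replicate 1 the highest. Its other probe averaged 1039. KRT10, better known from the upper epidermis, read 3048.0, 2585.3 and 2813.9.

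KRT18, the usual type I partner of KRT8, read only 396.7, 430.4 and 396.7 by its brighter probe and averaged 181.6 by the other. KRT7, a keratin of many glandular ducts, read 260.2, 197.9 and 274.5. KRT5 (116.7, 98.7 and 99.2) and KRT14 (106.9, 105.5 and 102.6), the basal pair, were below the limit on every array, as was KRT16 (133.4 ± 7.37). The remaining keratins above background, KRT83, KRT15, KRT24, KRT20 and KRT4, averaged between 158 and 180 units. At a stricter limit, the 99th percentile of the background probes (169.0 units), 6 keratins were above it.

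**Figure D3:**
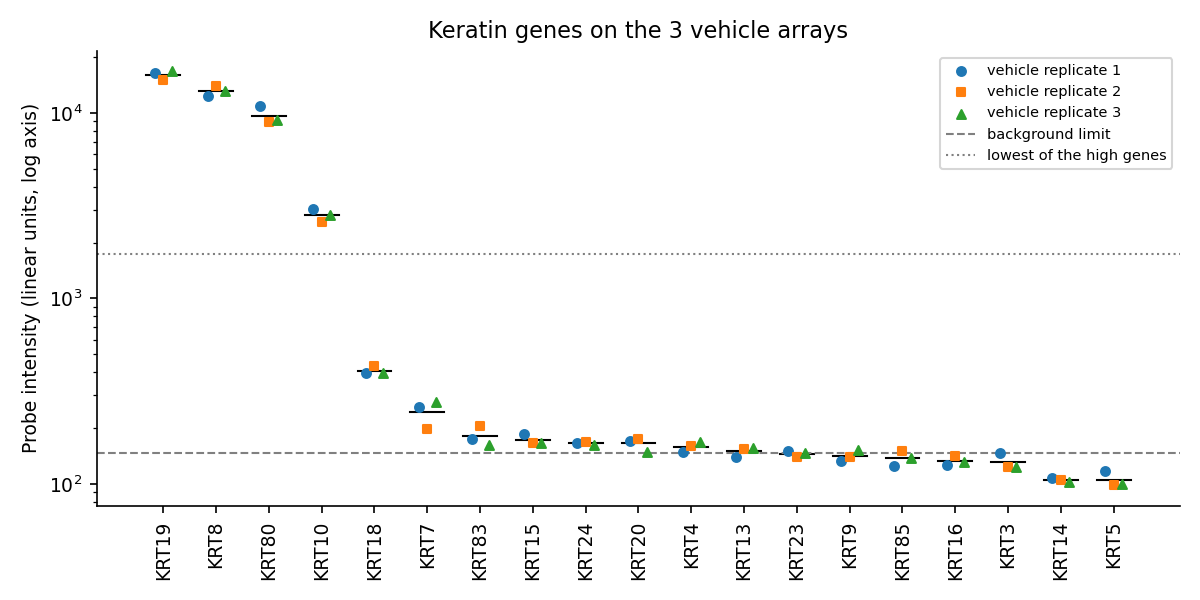
Intensity (log axis) on each vehicle array of the 16 keratin genes above the limit on at least 1 array, and of KRT16, KRT14 and KRT5. Points are arrays, bars are means, and the dashed and dotted lines mark the background limit and the lowest high gene, with KRT19, KRT8, KRT80 and KRT10 above the dotted line.

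Breast luminal genes gave a divided picture. Of 25 members 17 were above background (68%, against 52.4% of all named genes) and 9 were high (36%, against 10%), with a median intensity of 478.1. Beside TFF1, ESR1 and GATA3 the high members were AGR2, XBP1, MLPH, TFF3, SLC39A6 and STC2. AGR2 read 11739, 11587 and 11408 by its brighter probe and averaged 1680 by the other. XBP1, a factor of secretory differentiation, agreed between probes at means of 10466 and 10376. MLPH, a melanophilin gene that tracks with luminal breast tumours, read 6972.1, 8152.1 and 8186.4.

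TFF3, the second trefoil peptide gene, read 4386.6, 4018.9 and 4920.3. The zinc transporter gene SLC39A6 read 4482.1, 4112.4 and 3598.6, and the stanniocalcin gene STC2 averaged 1893 ± 157. Lower in the range stood the carbonic anhydrase gene CA12 (1583), the small mucin-like gene MUCL1 (1286 ± 71.0), TRPS1 (610.5 ± 62.9), the alveolar factor gene ELF5 (478.1 ± 30.0), AGR3 (413.9), the prolactin receptor gene PRLR (290), TBX3 (193) and NAT1 (169). Other well-known breast genes were not above the limit on any array. These were PGR, the progesterone receptor gene (129.4, 119.6 and 135.4), SCGB2A2, which encodes mammaglobin (116.9, 116.7 and 125.9), PIP (121.4), ANKRD30A, AZGP1 and the milk protein genes LALBA and CSN2. SCGB1D2 was borderline.

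Of 22 prostate luminal and androgen-response genes with a named probe 10 were above background (45.5%) and 0 were high, against 52.4% and 10% of all genes, and the list's median was 139.0 units. FOLH1, which encodes prostate-specific membrane antigen, averaged 112.8 and 105.1 by its probes. KLK2 read 134.0, 130.6 and 128.3 and KLK4 115.0, 120.6 and 141.1. The other members at background were STEAP2, OR51E2, TRPM8, TGM4, HPN, PCA3 and NPY.

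Of the members above background, 5 stood well clear of the limit. PMEPA1, a TGF-beta and androgen target, read 1568.3, 1847.9 and 1645.2, just under the high class. NDRG1 averaged 813.2 ± 107, the FK506-binding protein gene FKBP5 797.1 ± 74.0, the serine protease gene TMPRSS2 704.0 ± 19.9 and the racemase gene AMACR 425.2 ± 31.1. The other 5 lay closer to the limit. SLC45A3 averaged 270.5 ± 7.93, the seminal protein genes MSMB and ACP3 186.9 ± 23.3 and 185.9 ± 13.2, and CHRNA2 163. STEAP1 averaged 160.2 by 1 of its 4 probes, the others being at background. Several of these genes are induced by androgen, which was not added to vehicle cells, and the part of the medium in their levels was not tested.

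Markers of other cell types fell into all classes, as the plot of list classes shows. Basal and myoepithelial genes had 8 of 18 above background (44.4%, against 52.4% of all named genes) and 0 high (against 10%), with a median of 149.3. Those with the clearest signal were the hemidesmosome integrin gene ITGB4 (1247 ± 67.6), SFN (961.5 ± 66.4), the P-cadherin gene CDH3 (845.9 ± 10.1), ACTA2 (594.6 ± 48.5) and the oxytocin receptor gene OXTR (392.6 ± 51.5). LAMB3, KRT15 and EGFR lay under 200 units. KRT5, KRT14, DSG3, NGFR, MYLK and CNN1 were at background, and TP63, which defines basal cells, had no named probe.

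Urothelial genes had 5 of 7 above background (71.4%, against 52.4% of all named genes) and 0 high (against 10%). The uroplakin genes UPK2 (1739.2, 1737.0 and 1660.8), UPK1A (1415.2, 1494.9 and 1501.2) and UPK3B (967.6 ± 54.5) were all clearly above the limit, and the nuclear receptor gene PPARG averaged 1519 ± 74.9. UPK3A and UPK1B, which complete the urothelial plaque, were borderline, and KRT20 averaged 165.2. Squamous and skin genes had 4 of 11 above background, KRT10, PKP1 (876.4), SPRR1A (312.6) and KRT4. Liver genes had 2 of 8 (ALB at 262.2 and CPS1), lung genes 2 of 9 (SFTPD at 281.8 and NAPSA) and melanocyte genes 1 of 5 (PMEL at 299.3). Intestinal genes had 0 of 9 and genes of kidney, thyroid and Mullerian epithelium 0 of 7.

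Mesenchymal genes were above background in 3 of 12 cases (25%, against 52.4% of all named genes). VIM, the vimentin gene, read 415.9, 297.6 and 287.8 by its brighter probe, and its other probe was at background (124.6). S100A4 averaged 266 and SNAI2 219.8 ± 4.61, while ZEB1 (106.0), ZEB2, CDH2 and FN1 were at background. Fibroblast genes had 3 of 12 above it (25%), COL1A1, COL3A1 and TAGLN, none with a mean over 216 units. Immune genes had 2 of 11 (18.2%), CD14 and the lysosomal gene CD68. CD68 read 426.8, 545.3 and 721.2, a wider spread than most genes of its class, and the pan-leukocyte gene PTPRC was at background (121.1). Neuroendocrine genes had 1 of 10 above background, ENO2 (252.9 ± 11.1), with CHGA and SYP at background, and endothelial genes had 0 of 8.

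**Figure D4:**
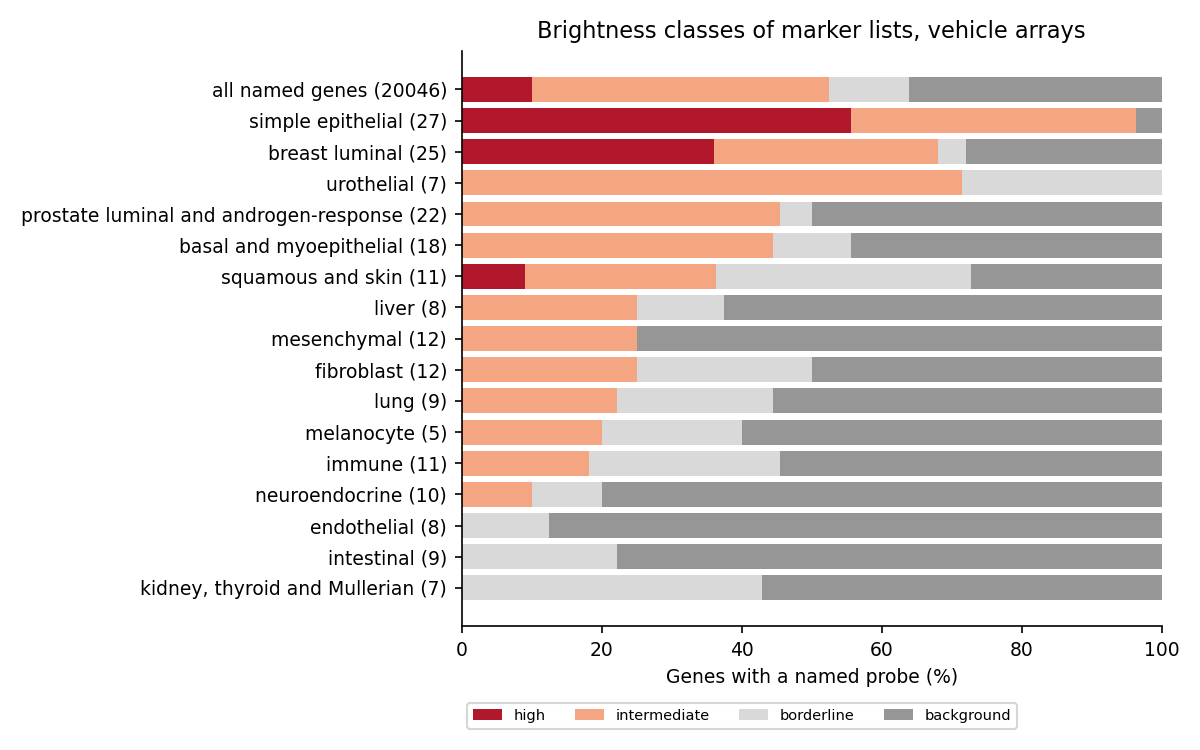
Share of genes with a named probe (%) in each brightness class for 16 marker lists and for all named genes, with the number of genes in brackets. Simple epithelial genes are above background in 26 of 27 cases, urothelial genes in 5 of 7 and breast luminal genes in 17 of 25. Prostate luminal and androgen-response genes are above it in 10 of 22, and all named genes in 52.4%.

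Among 46 lineage transcription factor genes 28 were above background (60.9%, against 52.4% of all named genes) and 7 were high (15.2%, against 10%). XBP1, FOXA1 and GATA3 were joined by ZNF217, a zinc finger gene often amplified in breast cancer (7122.3, 7499.1 and 7650.3), and the T-box gene TBX2 (3465.7, 3739.7 and 3568.0). The AP-2 gene TFAP2C (3082 ± 131) and the ETS gene SPDEF, which both prostate and breast luminal cells use (2501.5, 2907.8 and 3200.6), completed the high set.

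Intermediate factors spanned a wide range. SOX2, a stem cell factor not typical of luminal cells, read 1546.8, 1405.8 and 1663.6, and its other probe averaged 1160 ± 139. KLF4 averaged 969, TFAP2A 771, MSX2 668, MYB 451.8 ± 44.2, RUNX1 411.0 ± 52.5, SOX9 387.0 ± 18.1 and GATA2, a zinc finger factor also used in prostate, 340.4 ± 20.0. RUNX2, the gene that doxycycline is meant to induce, averaged 214.3 ± 10.1 and 169.3 ± 9.57 by its probes in these uninduced cells, both low but above the limit on every array. Factors of other lineages, such as CDX2, NKX2-1, PAX8, PAX2, GATA4, GATA1, SOX10, FOXA2, FOXA3, TFAP2B and EN1, were at background.

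HOX genes record position along the body. Of 29 members 12 were above background (41.4%) and 0 were high, against 52.4% and 10% of all named genes. HOXC13 read 1279.0, 1524.4 and 1339.6, HOXC6 averaged 1063 ± 92.3 and HOXB7 684.4 ± 76.9, and every other member above the limit averaged under 250 units. The other 3 HOXC6 probes were not above the limit on all arrays. HOXB13 and HOXD13 were at background.

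**Figure D5:**
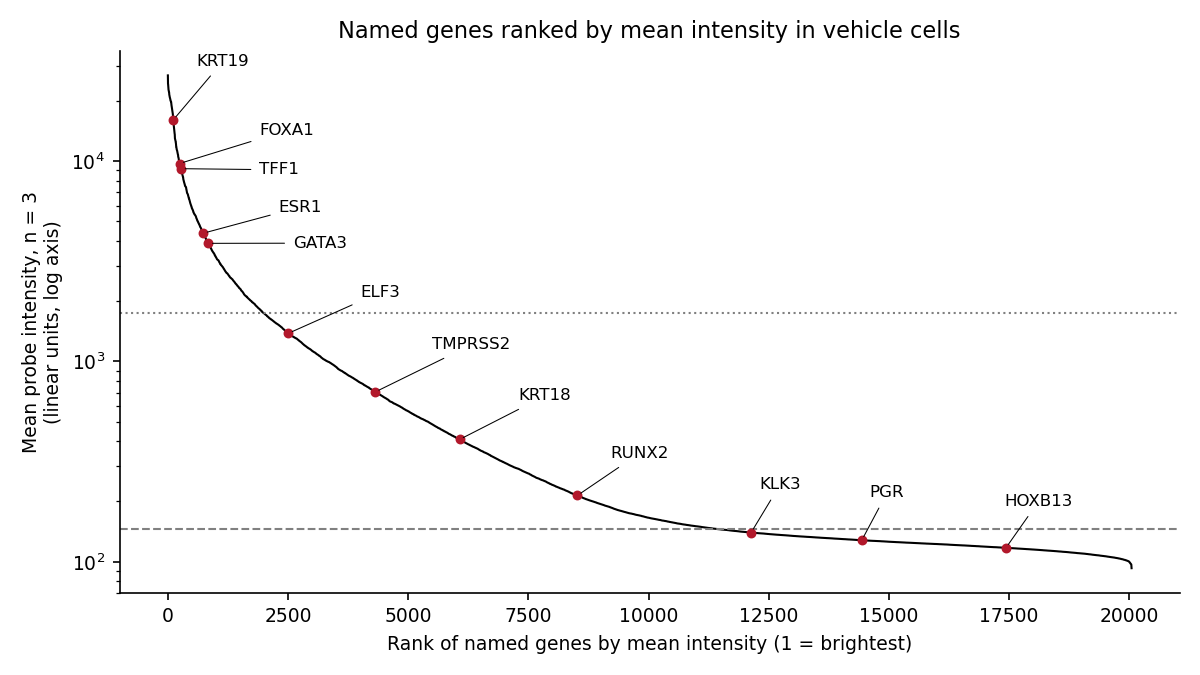
All 20046 named genes ranked by mean intensity over the 3 vehicle arrays (log axis), with the background limit dashed, the lowest high gene dotted and 12 genes marked. KRT19, FOXA1, TFF1, ESR1 and GATA3 lie on the steep left end and ELF3, TMPRSS2, KRT18 and RUNX2 on the slope. KLK3, PGR and HOXB13 lie on the flat part, with means below the background limit.

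Of 40 nuclear receptor genes with a named probe 18 were above background (45%, against 52.4% of all named genes). The 2 high ones (5%, against 10%) were ESR1 and RXRA, the common partner of many receptors (5060.1, 5075.3 and 4944.2). The retinoic acid receptor gene RARA averaged 1046 ± 128, NR2F6 1650 and RXRB 863. The other RARA probes were at background (128.2 and 105.0). Of the other steroid receptors the glucocorticoid receptor gene NR3C1 was low (223.7 ± 3.58), the mineralocorticoid receptor gene NR3C2 borderline, and PGR and the second estrogen receptor gene ESR2 (126.9 ± 3.35) were at background. The vitamin D receptor gene VDR averaged 186.8 ± 5.43.

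Growth factor receptors had 27 of 49 above background (55.1%) and 4 high (8.16%), shares near the 52.4% and 10% of all named genes. ERBB3, a kinase-poor receptor that signals with ERBB2, read 4754.5, 4361.5 and 4587.0 by its brightest probe. Its other probes averaged 359.4 and 195.1. ERBB2 read 1781.1, 1966.9 and 1713.7 by its brightest probe, close to the edge of the class, and was at background by its other 2 probes. FGFR3 (1892 ± 83.9) and the collagen receptor gene DDR1 (2047 ± 166) were also high. By their next brightest probes FGFR3 averaged 161.7 and DDR1 205.3. EGFR stood at the limit (181.9, 146.8 and 165.3) and ERBB4 below it (116.5). GFRA1, a coreceptor for RET, averaged 1034 ± 66.5 and RET 384.1 ± 14.2. MET averaged 385.2 and IGF1R 283.7, while FGFR1, FGFR2, KIT, PDGFRA and AXL were at background.

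Secreted protein genes had 34 of 55 above background (61.8%, against 52.4% of all named genes) and 11 high (20%, against 10%). After AGR2, TFF1 and TFF3 these were the cystatin gene CST3 (9141.5, 9932.4 and 11094), the lysosomal saposin gene PSAP (8543 ± 431), BMP7 (6344.0, 6545.4 and 5430.8) and IGFBP5 (4028.3, 5040.2 and 5506.8). TIMP1 (4012 ± 149), the growth factor gene MDK (3514 ± 224), the cathepsin gene CTSD (2147 ± 94.1) and STC2 closed the set. Of the MDK probes the next brightest averaged 214. IGFBP2 (1614), IGFBP3 (1458) and IGFBP4 (1005) were intermediate, and IGFBP1 was borderline. SLPI, LTF, PTN, IGF1, IGF2, TFF2 and CRISP3 were at background. Kallikreins are a family of secreted proteases on chromosome 19. They had 2 of 15 above background (13.3%) and 0 high, against 52.4% and 10% of all named genes. The 2 were KLK6 (251.2 ± 19.5) and KLK11 (221.3 ± 11.7).

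Surface protein genes had 35 of 51 above background (68.6%, against 52.4% of all named genes) and 17 high (33.3%, against 10%). Beside CD24, MUC1, EPCAM, SLC39A6, ERBB3 and ERBB2 the tetraspanin genes CD81 (12544 ± 50.7), TSPAN13 (9299 ± 562), CD151 (6909) and CD9 (3869) were high, with the second CD9 probe at 152. The transferrin receptor gene TFRC averaged 7499 ± 159, the adhesion gene ALCAM 4179 and CEACAM6 3543 ± 216. The transporter genes SLC2A1 (2974) and SLC7A5 (2250) were high too. So was the basigin gene BSG (2329), whose second probe was at background (103.4). Of the antigen presentation genes B2M was high (7228 ± 495), while the HLA class I heavy chain genes HLA-B (139.1, 141.8 and 150.2) and HLA-C (147.5, 137.3 and 133.7) were borderline and CD74 was at background. FOLH1, CD274, PROM1, NT5E, ENG, MCAM and TSPAN8 were at background.

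Integrins had 12 of 26 above background (46.2%, against 52.4% of all named genes) and 2 high (7.69%, against 10%). The high ones were ITGB1 (4620 ± 117) and ITGB5 (2404 ± 96.5), with ITGAV at 1637. The other probes of ITGB1 averaged from 1791 down to 109.2, and those of ITGB5 from 2310 down to 123.9. ITGA6, the usual partner of ITGB4, was at background by its brightest probe (122.3). Claudins had 9 of 23 above background (39.1%) and 2 high (8.70%), CLDN3 and CLDN7, with CLDN4 at 267.6 and CLDN1 at 161.

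Genes known to be induced by estrogen were read here in medium depleted of hormone. Of 21 members 18 were above background (85.7%, against 52.4% of all named genes) and 4 were high (19%, against 10%), namely XBP1, TFF1, CTSD and the cyclin gene CCND1 at 7499.1, 7160.1 and 7940.8. GREB1, whose product is a cofactor of ESR1, read 230.9, 190.8 and 200.1 by its brightest probe and was at background by the other 3. CXCL12 (166.5) and BCL2 (152) lay near the limit, EGR3 was borderline, and PGR and PDZK1 were at background.

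Cell cycle genes had 25 of 27 above background (92.6%) and 15 high (55.6%), against 52.4% and 10% of all named genes. Their median was 2006. TOP2A read 3650.4, 3534.1 and 3940.8, CDC20 3733.7, 3648.8 and 3707.3, and MCM7 8049.5, 6856.5 and 6474.8, while the proliferation marker MKI67 averaged only 236.6 ± 6.21. CCND2 and CCNE2 were at background. Housekeeping genes were above background in 13 of 13 cases and high in 10, with EEF1A1, a translation elongation factor gene, and ACTB at the top of the whole ranking (26807 ± 475 and 24937 ± 1412). Of 75 genes with symbols of cytosolic ribosomal proteins 71 were above background (94.7%) and 64 high (85.3%). They made up 48 of the 200 brightest genes.

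Leaving out ribosomal protein and housekeeping genes, the 25 brightest genes included several of plain abundance, ACTG1 (24699 ± 843), TPT1 (24273 ± 1411), TXN (22672 ± 1912), MYL6 (22511 ± 261), TMSB4X (22303 ± 382), GNAS (22155 ± 459), OAZ1 (21584 ± 1868), UBB (21243 ± 2460), SLC25A5 (20724 ± 1130) and S100A10 (20696 ± 334). PSMD6 (23387) and the pseudogene-named probes ATP5F1EP2, RPL13AP5, PPIAL4A, ANXA2P2, RPL13AP20, RPSAP9, TUBA3FP and RRP7BP were there too, and the names of such probes are uncertain because their sequences may be shared with the parent genes. In several cases the brightness was that of 1 probe. The second probes of GNAS and TMSB4X averaged 156.1 and 177.1, and those of TUBA3FP and RRP7BP lay below the limit. F2R, a thrombin receptor gene, averaged 23556 ± 1228 by that probe and 142.9 by the other. ITIH5 averaged 20609 ± 1117 by 1 of 5 probes, the next reading 129.3. LAIR1 (20349 against 136.7), MSH3 (20906 against 413.3) and ORC6 (22153 against 363.1) were split in the same way, and ZNF674 (20397) had a single probe. Among 917 high genes with several probes, the next brightest probe was above background for 772 (84.2%) and below the limit on every array for 87.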

How the data were processed

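Total RNA was labelled with biotin and read on single-colour Illumina bead arrays, per the labels and the probe names. The deposited intensity values were made by the authors with GenomeStudio, per the submitters' processing notes, with version, background step and normalization not given in the sources used here. Once sorted, the 3 vehicle columns were equal to within 0.8 units; they ran from 84.1 to 27321.9 with a median of 137.6. Such matching removes differences in total signal, and the remaining background compresses dim probes. No further normalization was applied. Gene names come from RefSeq (GRCh38.p14) by gene identifier for 30074 probes and from the platform's own symbol for 39, together 30113 probes with 1 symbol. Another 17109 probes were unnamed and 8 had several symbols, and these enter no gene value.

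Means and SDs are over n = 3 arrays, whose number limits the precision. No test was run, since no groups were compared. Of the 614 background probes (OR51E1 and OR51E2 left out) 6 exceeded the limit on all 3 arrays. Reading a gene by its brightest probe favours genes with several probes. Genes named are members of 30 lists, the 8 markers, the 25 brightest genes with and without ribosomal protein and housekeeping genes, and the 10 with the largest log2 SD. Members and lists were chosen with earlier results of these data known. Alternatives changed the limit, the background families, the rule over arrays, the probe rule, the high share and the arrays used. The class rule was also run on simulated data with well separated levels, which cannot show how it sorts genes near the class limits. Values were computed with numpy 2.4.6 and pandas 2.3.3 under Python 3.11.15, and plots drawn with matplotlib 3.10.9.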

Additional observations from a re-analysis of the deposited data

How the results depend on the processing

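Of 73 alternative values 71 stayed within 1.5 times the main count or, for the 8 marker levels taken as geometric means, within 1 SD. The exceptions were keratins above background, 6 instead of 11 at the 99th percentile limit of 169.0 units, and the number of high genes, 1002 instead of 2005 when the top 5% were called high. Genes above background ranged from 9365 at the 99th percentile limit to 11375 when the mean had to pass the limit. Across the alternatives, members above background ranged from 7 to 10 for prostate luminal and androgen-response genes and from 16 to 17 for breast luminal genes. KLK3 changed class, to background, when the mean had to pass the limit and without replicate 2. The other 7 markers kept theirs under the 8 alternatives other than the top 5%. With the mean of all probes 1723 of the 2005 high genes stayed high. No paired analysis was possible because 1 group was described and no test was run. Dim genes are limited by the remaining background: a gene below 146.2 units may still be expressed.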

Other observations

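The 10 genes above background with the largest spread over the 3 vehicle arrays were TELO2 (446.2, 340.6 and 206.1), SLC71A3P, CSAD, GPNMB, RRP1, C21orf58, SLC25A51, TCAF2, the read-through SMURF2P1-LRRC37BP1 and IL17RD. Their log2 SDs ran from 0.43 to 0.57. SLC25A51, a mitochondrial NAD carrier gene, read 3281.2, 3879.2 and 5898.7, and GPNMB, a lysosomal glycoprotein gene, 210, 383.5 and 232.0.

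Of the 17117 probes without a single gene name 3623 (21.2%) passed the limit on every vehicle array, while 45.8% of named probes did, and 672 were as bright as the high genes. Their transcripts are not described here.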
